A study of Saccharomyces cerevisiae with 27 samples.

Results

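The 7 arrays of 18-20-generation yeast cells fall into 2 sets that share a large part of their differences from young cells and differ in another part: arrays 1 to 4, and arrays 5 to 7. The sets were chosen by how the measured ratios of the arrays correlate, so every difference between them below is a description with no test. They are 7 of the 27 arrays of the series. The organism is the budding yeast Saccharomyces cerevisiae, wild type, strain background W303, described as "a mating type", which may mean mating type a. On every array of both sets, RNA of cells aged 18 to 20 generations was set against RNA of young cells, labelled 1 generation old and described as matched in conditions. No array compared the sets directly. The 7 arrays of 12-generation cells, each also set against young cells, are used where they bear on the same genes. Magnetic sorting gave the aged cells, whose cultures stayed in log phase, and the material is a bulk sample in which a change in the mix of cells and a change of RNA per cell cannot be told apart. Aged RNA was in red (Cy5) on arrays 1, 3, 5 and 7 and in green (Cy3) on arrays 2, 4 and 6. Nothing in the labels tells if arrays of 1 age came from separate cultures, or if arrays of opposite dye share RNA. P-values therefore rest on how far arrays scatter, which may be technical scatter.

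A mother cell of budding yeast divides asymmetrically, and its replicative age is the number of daughters it has produced. Budding yeast makes amino acids, purines and one-carbon units through pathways whose genes are switched on when the nutrients run short and down when they are supplied. Its genes for gluconeogenesis, fat breakdown and the use of lactate, acetate and ethanol are held down by glucose, and its ribosome genes are shut down together in many stresses while a common set of stress genes is switched on.

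Values below are log2(aged/young), so that 1 is a 2-fold higher and -1 a 2-fold lower level in aged cells, corrected for dye. Expression was tested for 5865 genes, and 5200 of them were measured on at least 3 of arrays 1 to 4 and on all of arrays 5 to 7, so that the sets could be compared. The arrays differed in brightness along with the sets. The median red brightness of a spot ran between 1518.5 and 2287.5 on arrays 1 to 4, against 457.5 on array 5, 334 on array 6 and 4484.5 on array 7. Array 7 stands apart within its own set, with 6.29% of spots partly saturated, against at most 0.99% on each of the others, and with a wider spread of ratios (SD 1.27, against 0.889 to 1.17). The part of brightness in the set differences was not tested, and the difference without array 7 is given for several genes that lean on it.

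Over genes, arrays 1 to 4 correlated with each other at r = 0.942 to 0.968. Arrays 5 and 6 correlated at 0.902, and array 7 with them at 0.756 and 0.812. Across the sets r ran between 0.626 and 0.735 over the 12 pairs. Between the mean of arrays 1 to 4 and the mean of arrays 5 to 7, r was 0.735 over the 5200 genes, and it was 0.736 with array 7 left out. Genes are not independent replicates, and these correlations are what chose the sets. The typical gene had an SD of 0.193 among arrays 1 to 4 and 0.321 among arrays 5 to 7 (0.191 between arrays 5 and 6), beside a median absolute difference of 0.436 between the sets. Over the 4644 genes measured on all 7 arrays, 80.7% of the sum of squared log2 ratios lay in the mean of the 7 arrays, 11.9% in the split into sets, 2.01% within arrays 1 to 4 and 5.42% within arrays 5 to 7.

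**Figure D1:**
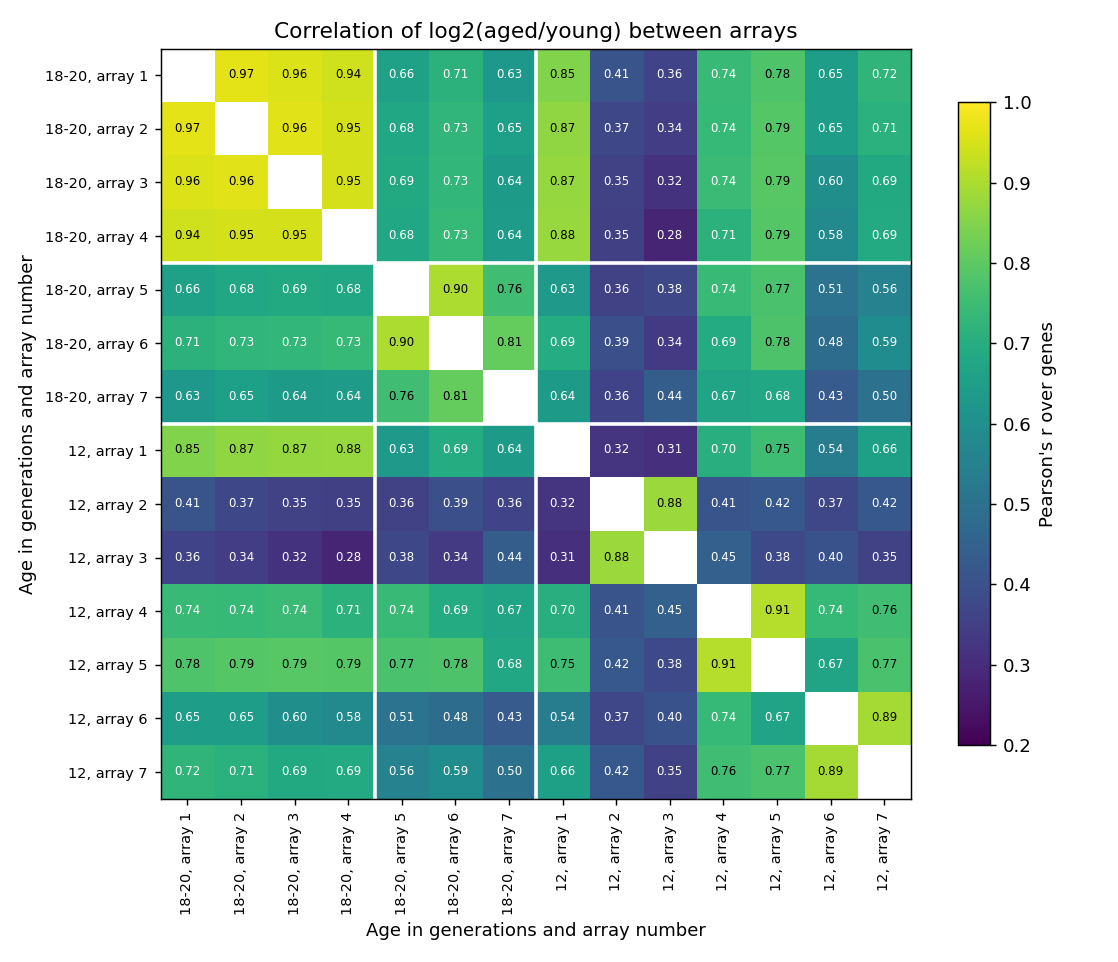
Pearson's r of log2(aged/young) over genes for every pair of the 18-20-generation arrays (first 7) and the 12-generation arrays (last 7), with white lines around arrays 1 to 4 and arrays 5 to 7. Arrays 1 to 4 form a block of 0.942 or more, arrays 5 and 6 a pair at 0.902, and 12-generation array 1 lies closer to arrays 1 to 4 than to any array of its own age.

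Arrays 1 to 4 all read above arrays 5 to 7 for 1069 of the 5200 genes (20.6%) and all below them for 1063 (20.4%). The difference was over 2-fold for 347 of those above and 400 of those below, 747 genes in all. With array 7 left out, 592 of the 747 still differed over 2-fold the same way. The count was 123 with the arrays scaled to equal spread and 1323 with array 7 alone set against arrays 1 to 4. In the limma fit of all arrays with Benjamini-Hochberg adjustment, 1932 genes rose at 18-20 generations (32.9% of those tested) and 1832 fell (31.2%). At 12 generations 1364 genes rose (23.3%) and 1263 fell (21.5%). Rose and fell refer below to that fit over the 7 arrays of an age, and a gene said to have risen or fallen in both sets also had both set means on that side, with no test within a set. Counts of list members lying higher or lower on arrays 1 to 4 are to be read beside the 20.6% and 20.4% of all genes compared. Likewise, counts of members that rose or fell at 18-20 generations are to be read beside 32.9% and 31.2% of all genes tested. At 12 generations the shares to set beside them are 23.3% and 21.5%.

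Strong changes were shared in part. Over 2-fold up were 813 genes in the mean of arrays 1 to 4, 705 in that of arrays 5 to 7, and 408 in both. Over 2-fold down were 905 in arrays 1 to 4, 765 in arrays 5 to 7, and 533 in both. Of genes over 2-fold up in the mean of arrays 1 to 4, 50.2% were also over 2-fold up in the mean of arrays 5 to 7, and of those in arrays 5 to 7, 57.9% were up in arrays 1 to 4. For genes over 2-fold down the shares were 58.9% of arrays 1 to 4 and 69.7% of arrays 5 to 7. A gene past 2-fold in opposite directions was rare, with 1 gene up in arrays 1 to 4 and down in arrays 5 to 7, and 29 the other way round.

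**Figure D2:**
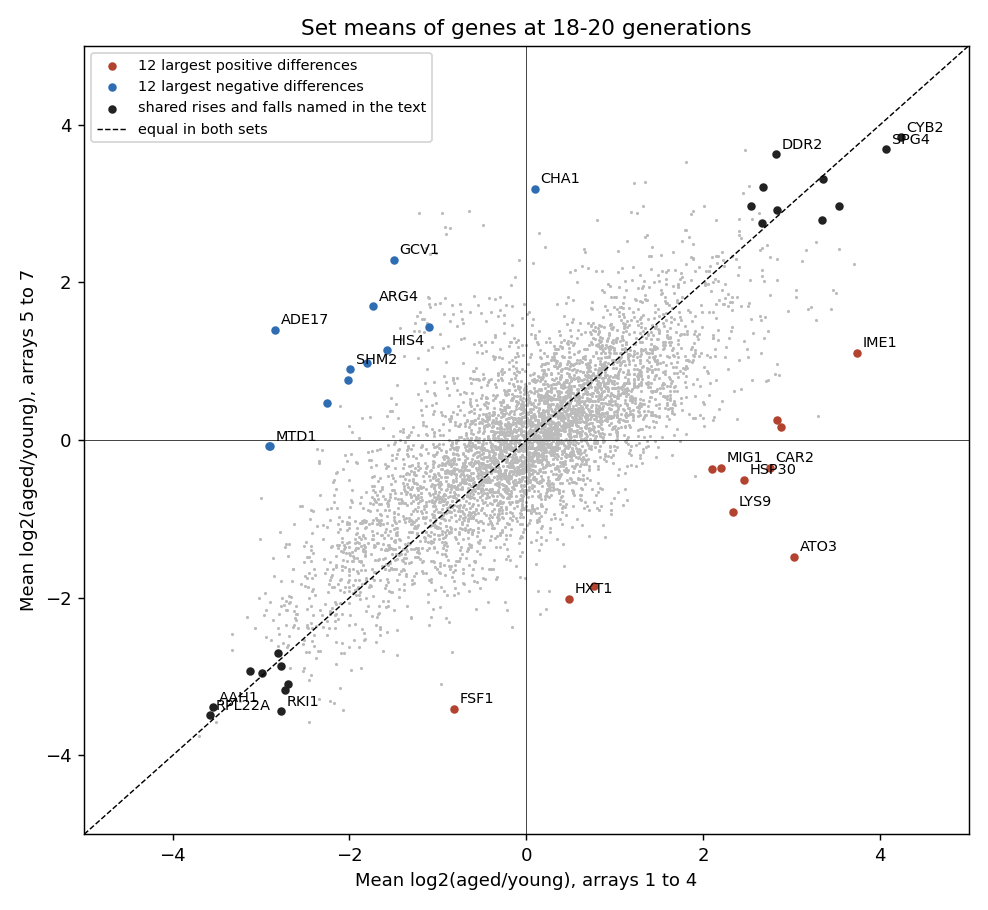
Mean log2(aged/young) of arrays 1 to 4 (horizontal) against that of arrays 5 to 7 (vertical), 1 point for each of the 5200 genes, with the dashed line where both sets are equal. The shared rises and falls (black) lie at the ends of the line, while ATO3 (3.03 on arrays 1 to 4 and -1.48 on arrays 5 to 7) and ADE17 (-2.84 on arrays 1 to 4 and 1.40 on arrays 5 to 7) lie in opposite corners off it.

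The shared rises, ranked by the smaller of their set means, were led by CYB2 and SPG4. CYB2, the mitochondrial enzyme that feeds lactate into respiration, read 4.49, 3.97, 4.18 and 4.34 on arrays 1 to 4, and 3.52, 3.32 and 4.67 on arrays 5, 6 and 7. SPG4, a gene needed for survival in stationary phase, read 3.91, 4.10 and 4.20 on arrays 1, 2 and 4, and 3.27, 3.36 and 4.45 on arrays 5, 6 and 7. The sets overlap for both genes, array 7 being the highest of all. Over the 7 arrays CYB2 rose by 4.07 ± 0.299 (SE, adjusted p = 5.63e-12) and SPG4 by 3.88 ± 0.235 (adjusted p = 4.14e-13). HSP12, a small membrane-protecting stress protein, averaged 2.83 ± 0.0614 in arrays 1 to 4 and 2.92 ± 0.834 in arrays 5 to 7 (SD, n = 4 and 3), and its difference of -0.09 was 0.39 without array 7. CSR2 averaged 3.35 on arrays 1 to 4 and 3.31 on arrays 5 to 7, IDP3, the peroxisomal isocitrate dehydrogenase, 3.34 on arrays 1 to 4 and 2.79 on arrays 5 to 7. HXK1, the hexokinase induced on carbon sources other than glucose, averaged 2.68 on arrays 1 to 4 and 3.21 on arrays 5 to 7, a difference of -0.53 that was -0.05 without array 7. DDR2, SUE1, DAD3 and BIO4 complete the 10 largest, with rises over the 7 arrays of 3.17, 3.29, 2.71 and 2.73. All 10 also rose at 12 generations, by between 1.59 for HXK1 and 3.33 for SPG4.

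The named shared falls were mostly of genes of ribosomes, translation and nucleotides. RPL22A, a protein of the large ribosomal subunit, read -3.73, -3.63, -3.59 and -3.37 on arrays 1 to 4, and -3.96, -4.36 and -2.14 on arrays 5, 6 and 7. AAH1, the adenine deaminase that recycles adenine in growing cells, read -3.27, -4.16, -3.32 and -3.40 on arrays 1 to 4, and -3.83, -3.57 and -2.77 on arrays 5, 6 and 7. For both genes the sets overlap, and both had a saturated spot on 1 of the 7 arrays. RPL22A fell by 3.54 (adjusted p = 1.33e-13) and AAH1 by 3.48 (adjusted p = 5.47e-14). NIP7, which acts in large-subunit assembly, averaged -3.12 on arrays 1 to 4 and -2.93 on arrays 5 to 7, TRM11, a tRNA methyltransferase, -2.99 on arrays 1 to 4 and -2.95 on arrays 5 to 7, and ARB1, an ATPase of ribosome assembly, -2.78 on arrays 1 to 4 and -2.86 on arrays 5 to 7. RKI1, of the pentose phosphate pathway, is the one whose sets do not overlap, at -2.77 in arrays 1 to 4 and -3.44 in arrays 5 to 7. EFB1, a translation elongation factor, and the ribosomal protein genes RPL18B and RPL16A fell by 2.76, 2.92 and 2.86 over the 7 arrays, and these 9 genes all fell at 12 generations too, by between 0.59 for TRM11 and 1.92 for AAH1.

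As groups, the ribosomal proteins and the stress genes moved the same way in both sets. All 75 genes of the large subunit and all 56 of the small subunit that were tested fell at 18-20 generations, with medians for large and small subunit of -2.03 and -2.15 in arrays 1 to 4 and of -1.66 and -2.03 in arrays 5 to 7. The medians of array 7 were -0.98 and -1.09, the smallest falls of the 7 arrays, and 89 of these 131 genes (67.9%) had a saturated spot there, against at most 12 on any of the others. Without array 7 the median difference over the large subunit was -0.08, and over the small subunit 0.10. RPL9B, of the large subunit, differed more, at -1.48 on arrays 1 to 4 and -0.35 on arrays 5 to 7, a difference of -1.13 that was -0.85 without array 7. RPS4B, of the small subunit, averaged -2.35 on arrays 1 to 4 and -3.29 on arrays 5 to 7, and its difference of 0.94 was 0.68 without array 7 but -0.34 in the authors' deposited table. Of the 71 measured genes of the induced environmental stress response, 68 rose and 1 fell, with medians of 1.58 in arrays 1 to 4 and 1.97 in arrays 5 to 7. Array by array the median of that list was between 1.49 and 1.73 on arrays 1 to 4, against 1.62, 1.71 and 2.44 on arrays 5, 6 and 7, and without array 7 the median difference was 0.11. The proteasome rose in 34 of 38 genes, among them RPT4, an ATPase of its base, by 1.24, and RPN4, its transcriptional activator, at 2.33 in both sets. Of the 37 proteasome genes compared 6 lay wholly above on arrays 1 to 4 and none below, with a median difference of 0.22. Both counts are smaller shares than the 20.6% above and 20.4% below among all genes compared. PUP3, a subunit of its core, read 0.70, 0.73, 0.09 and 0.75 on arrays 1 to 4, against -0.65, -0.47 and -1.87 on arrays 5, 6 and 7. RPN11, its deubiquitinase, averaged 1.15 on arrays 1 to 4 and 0.04 on arrays 5 to 7. RPN9 averaged 0.99 on arrays 1 to 4 and -0.08 on arrays 5 to 7, and RPN10, a ubiquitin receptor, 0.49 on arrays 1 to 4 and -0.25 on arrays 5 to 7. Proteins of ribosomes often come as near-identical gene pairs, and spots of such pairs may share label.

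Ribosome biogenesis genes were low in both sets, and many lay lower on arrays 1 to 4. Of 106 ribosome biogenesis genes 102 fell at 18-20 generations and none rose, with medians of -1.82 in arrays 1 to 4 and -1.22 in arrays 5 to 7. In 55 of the 104 compared, arrays 1 to 4 lay wholly below arrays 5 to 7, and in 3 wholly above, with a median difference of -0.59 beside 0.02 over all genes. CBF5, the pseudouridine synthase of box H/ACA particles, read -2.32, -1.91, -2.07 and -1.63 on arrays 1 to 4, against 0.01, -0.44 and -0.11 on arrays 5, 6 and 7. NOP12 averaged -1.86 in arrays 1 to 4 and 0.28 in arrays 5 to 7. NOP2 and IMP3 also differed, by -2.45 and -2.72, but with 2.68 and 2.10 on array 7 against 0.45 and 0.09, and -0.26 and -0.43, on arrays 5 and 6, and the differences were -1.64 and -1.90 without array 7. The sets overlap for UTP20 and NIP7. Of the 36 translation factors 32 fell and 1 rose, and 16 of the 33 compared lay lower on arrays 1 to 4 and none higher. NIP1, a subunit of the initiation factor eIF3, averaged -1.87 on arrays 1 to 4 and -0.73 on arrays 5 to 7, while TEF4 averaged -2.58 on arrays 1 to 4 and -2.39 on arrays 5 to 7. RNA polymerase I and III differed less as a group (median difference -0.28), with RPC11 at -2.41 on arrays 1 to 4 and -0.90 on arrays 5 to 7 and RPA135, a large subunit of polymerase I, at -2.81 on arrays 1 to 4 and -2.61 on arrays 5 to 7.

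Several of the largest differences were in one-carbon metabolism, the folate reactions that pass single carbons from serine and glycine to purines and methionine. ADE17, which catalyses the closing steps of purine synthesis, read -3.10, -3.03, -2.78 and -2.43 on arrays 1 to 4, against 0.91, 1.36 and 1.94 on arrays 5, 6 and 7. GCV1, a subunit of the mitochondrial glycine cleavage complex, read -1.45, -1.57, -1.69 and -1.31 on arrays 1 to 4, against 2.14, 2.58 and 2.16 on arrays 5, 6 and 7. SHM2, the cytosolic serine hydroxymethyltransferase, read -2.05, -2.28, -2.03 and -1.61 on arrays 1 to 4, against 1.07, 0.90 and 0.71 on arrays 5, 6 and 7. All 3 were below 0 on every array of the first set and above 0 on every array of the second, with differences of 18.9-fold, 13.9-fold and 7.39-fold. Averaged over 7 such arrays they passed no threshold at 18-20 generations, with limma changes of -1.02 ± 0.458 for ADE17 (SE, adjusted p = 0.0533), 0.12 ± 0.397 for GCV1 (adjusted p = 0.8) and -0.75 ± 0.347 for SHM2 (adjusted p = 0.059). ADE17 and SHM2 passed the threshold when array 5, 6 or 7 was left out. With no array left out, both passed with loess run within each printed block and with set means weighted equally. ADE17 also passed without background correction and without the dye term, and SHM2 with median centring. Over these settings the values farthest from 0 were -1.51 for ADE17 and -1.06 for SHM2. GCV1 passed with set means weighted equally and with arrays 1 to 4 averaged, at 0.41 to 1.36.

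Other steps of the pathway split the same way. GCV2, another subunit of glycine cleavage, averaged -2.02 in arrays 1 to 4 and 0.76 in arrays 5 to 7. MTD1, a methylenetetrahydrofolate dehydrogenase, read between -3.11 and -2.74 on arrays 1 to 4, against -0.11, -0.12 and -0.02 on arrays 5, 6 and 7. CHA1, the deaminase that breaks down serine and threonine, stood near 0 on arrays 1 to 4, at 0.04, 0.14, -0.14 and 0.37, against 3.16, 3.27 and 3.16 on arrays 5, 6 and 7. The sets of CHA1 and MTD1 do not overlap. In the group of 20 measured one-carbon, serine and glycine genes, which was put together after these values were seen, 12 were lower and 3 higher on arrays 1 to 4, and the medians were -1.45 on arrays 1 to 4 and -0.23 on arrays 5 to 7. ADE3, the cytosolic C1-tetrahydrofolate synthase, averaged -0.26 on arrays 1 to 4 and 1.48 on arrays 5 to 7, and its mitochondrial counterpart MIS1 fell in both sets, at -2.40 on arrays 1 to 4 and -1.63 on arrays 5 to 7. SER1, SER33 and GLY1, of serine and glycine synthesis, had differences of -1.61, -1.05 and -0.83, and SER33 has a close relative, SER3, that its spots may also bind. DFR1, the dihydrofolate reductase, overlapped, at -1.59 on arrays 1 to 4 and -1.84 on arrays 5 to 7.

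**Figure D3:**
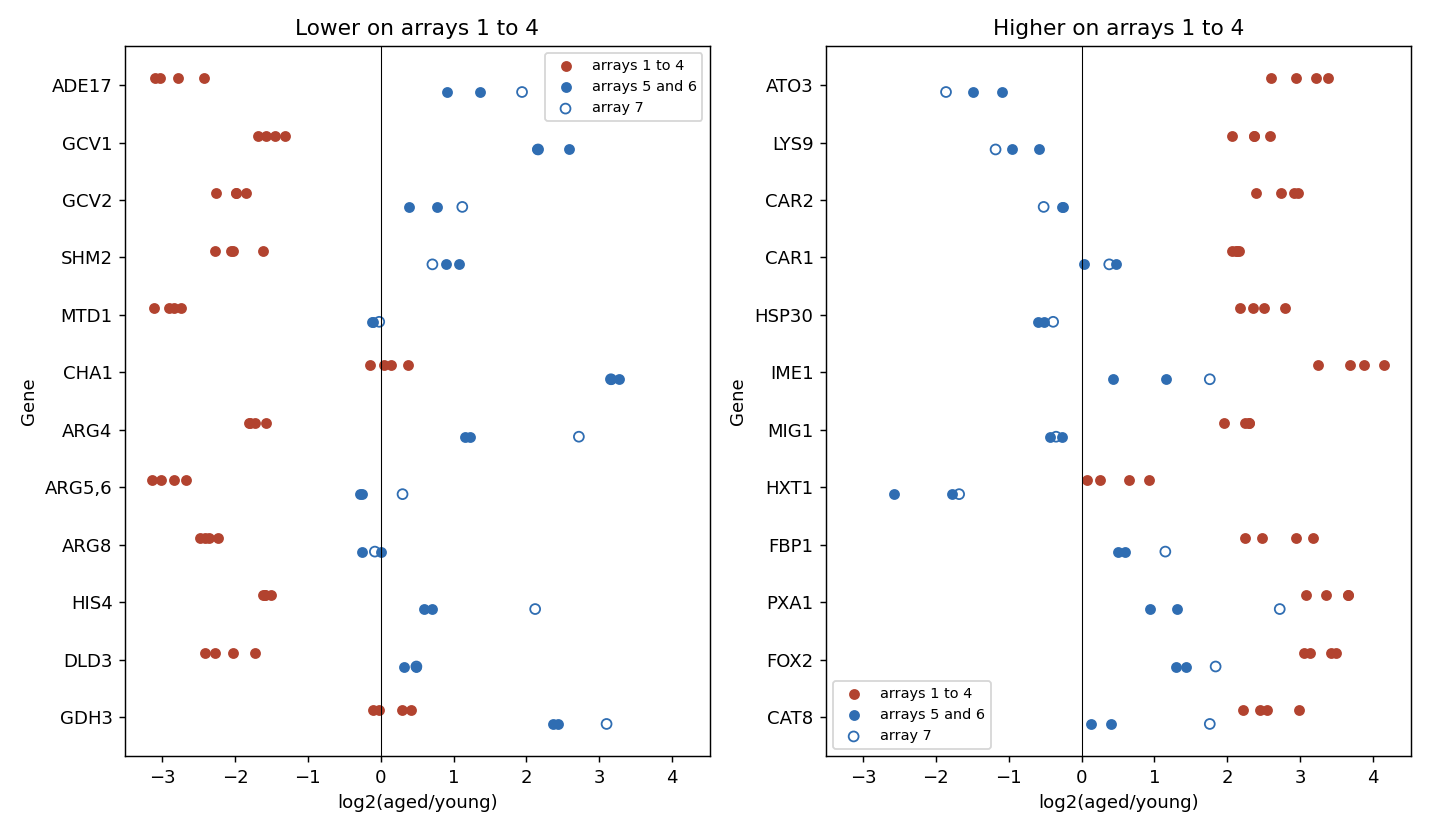
Log2(aged/young) of 24 genes on each 18-20-generation array (horizontal), with arrays 1 to 4 in red, arrays 5 and 6 in filled blue and array 7 in open blue. No gene shown has a red point inside its blue range, and the open points of ARG4 and HIS4 lie further from 0 than those of arrays 5 and 6.

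ARG4, ARG5,6 and ARG8 of arginine synthesis were lower, and CAR1 and CAR2 of arginine breakdown higher, on arrays 1 to 4. ARG4, the argininosuccinate lyase of the last step of synthesis, read -1.57, -1.81, -1.73 and -1.80 on arrays 1 to 4, against 1.22, 1.16 and 2.72 on arrays 5, 6 and 7. ARG5,6, which encodes 2 mitochondrial enzymes of ornithine synthesis, averaged -2.91 ± 0.203 in arrays 1 to 4 and -0.08 ± 0.329 in arrays 5 to 7 (SD, n = 4 and 3). ARG8, the acetylornithine aminotransferase, averaged -2.37 on arrays 1 to 4 and -0.11 on arrays 5 to 7. ORT1, the mitochondrial ornithine carrier, overlapped, at -1.29 on arrays 1 to 4 and -1.17 on arrays 5 to 7. On the side of breakdown, CAR2, the ornithine aminotransferase, read 2.97, 2.74, 2.91 and 2.39 on arrays 1 to 4, against -0.27, -0.26 and -0.52 on arrays 5, 6 and 7. CAR1, the arginase, read 2.06, 2.13, 2.16 and 2.12 on arrays 1 to 4, against 0.47, 0.03 and 0.38 on arrays 5, 6 and 7. The sets are clear of each other for both genes. CAR2 and CAR1 also rose at 12 generations, by 1.32 (adjusted p = 0.00693) and 1.55 (adjusted p = 7.81e-05).

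Both named genes of lysine synthesis were higher on arrays 1 to 4. LYS9, the saccharopine dehydrogenase, read 2.58, 2.36, 2.07 and 2.37 on arrays 1 to 4, against -0.96, -0.58 and -1.18 on arrays 5, 6 and 7. LYS1, which catalyses the step after it, was up in both sets, at 1.87 on arrays 1 to 4 and 1.18 on arrays 5 to 7. In the list of arginine and lysine genes 9 of 17 lay lower on arrays 1 to 4 and 3 higher, with a median difference of -0.81. In the list of branched-chain, histidine and aromatic synthesis the counts were 18 lower and 5 higher of 38. HIS4, which encodes 3 activities of histidine synthesis, read between -1.61 and -1.50 on arrays 1 to 4, against 0.71, 0.59 and 2.12 on arrays 5, 6 and 7. HIS5 averaged -0.89 on arrays 1 to 4 and 1.19 on arrays 5 to 7, and ARO3, an entry enzyme of aromatic synthesis, -0.71 on arrays 1 to 4 and 1.30 on arrays 5 to 7. HIS1 was below 0 on every array and fell by 2.58 over the 7. ARO9, an aromatic aminotransferase, went the other way from most of its list, at 2.21 on arrays 1 to 4 and 0.50 on arrays 5 to 7. ARO5, listed under that name with no role given here, averaged -1.80 on arrays 1 to 4 and 0.98 on arrays 5 to 7. In purine and pyrimidine synthesis 15 of 31 lay lower on arrays 1 to 4 and 1 higher, among them URA2, the first enzyme of pyrimidine synthesis, at -0.43 on arrays 1 to 4 and 1.80 on arrays 5 to 7, while FUR1 fell in both at -2.75 on arrays 1 to 4 and -2.57 on arrays 5 to 7.

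Nitrogen and the tricarboxylic acid cycle held genes of both kinds. ATO3, a plasma membrane protein of ammonium export, had the largest positive difference of all, 22.9-fold, with 3.38, 3.22, 2.60 and 2.94 on arrays 1 to 4, against -1.49, -1.09 and -1.86 on arrays 5, 6 and 7. GDH3, which makes glutamate from ammonium, averaged 0.15 in arrays 1 to 4 and 2.63 in arrays 5 to 7. GDH2, which breaks glutamate down, rose by 2.19, with set means of 2.52 on arrays 1 to 4 and 1.74 on arrays 5 to 7. GLN1, the glutamine synthetase, averaged -1.93 on arrays 1 to 4 and -0.28 on arrays 5 to 7. In the list of nitrogen catabolite genes the counts were 6 higher and 9 lower of 28, beside 20.6% higher and 20.4% lower among all genes compared. Of 10 compared genes of the retrograde response, by which mitochondria signal to the nucleus, 5 lay lower on arrays 1 to 4 and 1 higher. DLD3, a D-lactate dehydrogenase and classical target of that pathway, averaged -2.11 on arrays 1 to 4 and 0.43 on arrays 5 to 7, PYC1, a pyruvate carboxylase, 0.03 on arrays 1 to 4 and 1.63 on arrays 5 to 7, and ACO1, the aconitase, -0.08 on arrays 1 to 4 and 2.28 on arrays 5 to 7. ACO1 read 1.36, 1.51 and 3.98 on arrays 5, 6 and 7, and its difference was -1.51 without array 7. CIT1, the citrate synthase, rose by 2.28, with set means of 2.21 on arrays 1 to 4 and 2.39 on arrays 5 to 7. LSC1 and CIT3 averaged 1.65 on arrays 1 to 4 and 0.34 on arrays 5 to 7, and 3.53 on arrays 1 to 4 and 2.42 on arrays 5 to 7, with overlap for CIT3.

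Many genes for the use of carbon sources other than glucose were higher on arrays 1 to 4. All 25 measured genes of gluconeogenesis, the glyoxylate cycle and acetate and ethanol use rose at 18-20 generations and 24 rose at 12 generations. Their median was 2.54 in arrays 1 to 4 and 1.64 in arrays 5 to 7, and 12 of the 20 compared lay wholly above and 1 wholly below. FBP1, the fructose-1,6-bisphosphatase, read 2.94, 3.17, 2.25 and 2.47 on arrays 1 to 4, against 0.50, 0.60 and 1.15 on arrays 5, 6 and 7. CAT8, an activator of these genes, read 2.55, 2.98, 2.45 and 2.22 on arrays 1 to 4, against 0.13, 0.41 and 1.76 on arrays 5, 6 and 7. Both were above 0 on every array, and the sets are separate. PCK1 averaged 2.43 on arrays 1 to 4 and 0.65 on arrays 5 to 7, and IDP2 2.38 on arrays 1 to 4 and 0.27 on arrays 5 to 7. The spots of CAT8 and IDP2 were well above background on 1 of arrays 5 to 7, and those of FBP1 and PCK1 on 2. The list median was between 2.24 and 2.68 on arrays 1 to 4, against 0.88, 1.03 and 2.10 on arrays 5, 6 and 7, with array 7 nearer to the first set than arrays 5 and 6.

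Peroxisomal fat breakdown followed that pattern, with 12 of 19 genes above and none below. PXA1, a subunit of the transporter that brings fatty acids into the peroxisome, read 3.65, 3.66, 3.08 and 3.35 on arrays 1 to 4, against 0.94, 1.31 and 2.72 on arrays 5, 6 and 7. FOX2, the multifunctional enzyme of beta-oxidation, averaged 3.27 on arrays 1 to 4 and 1.52 on arrays 5 to 7, and POX1, the acyl-CoA oxidase, 3.70 on arrays 1 to 4 and 2.24 on arrays 5 to 7. TES1, a thioesterase, was at 1.53 on arrays 1 to 4 and 0.04 on arrays 5 to 7. Of the hexose transporters and glucose sensors 9 of 16 lay above and none below, and such transporter genes are alike in sequence. HXT1, the low-affinity transporter of cells in high glucose, read 0.65, 0.93, 0.26 and 0.07 on arrays 1 to 4, against -1.78, -2.58 and -1.68 on arrays 5, 6 and 7. HXT5 and HXT13 averaged 1.79 on arrays 1 to 4 and 0.74 on arrays 5 to 7, and 1.91 on arrays 1 to 4 and 0.55 on arrays 5 to 7. MIG1, the repressor that keeps many of these genes off in glucose, averaged 2.20 ± 0.162 in arrays 1 to 4 and -0.35 ± 0.0798 in arrays 5 to 7 (SD, n = 4 and 3). MTH1, a corepressor of hexose transporter genes, rose in both, at 1.60 on arrays 1 to 4 and 2.16 on arrays 5 to 7, a difference of -0.56 that was -0.08 without array 7.

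**Figure D4:**
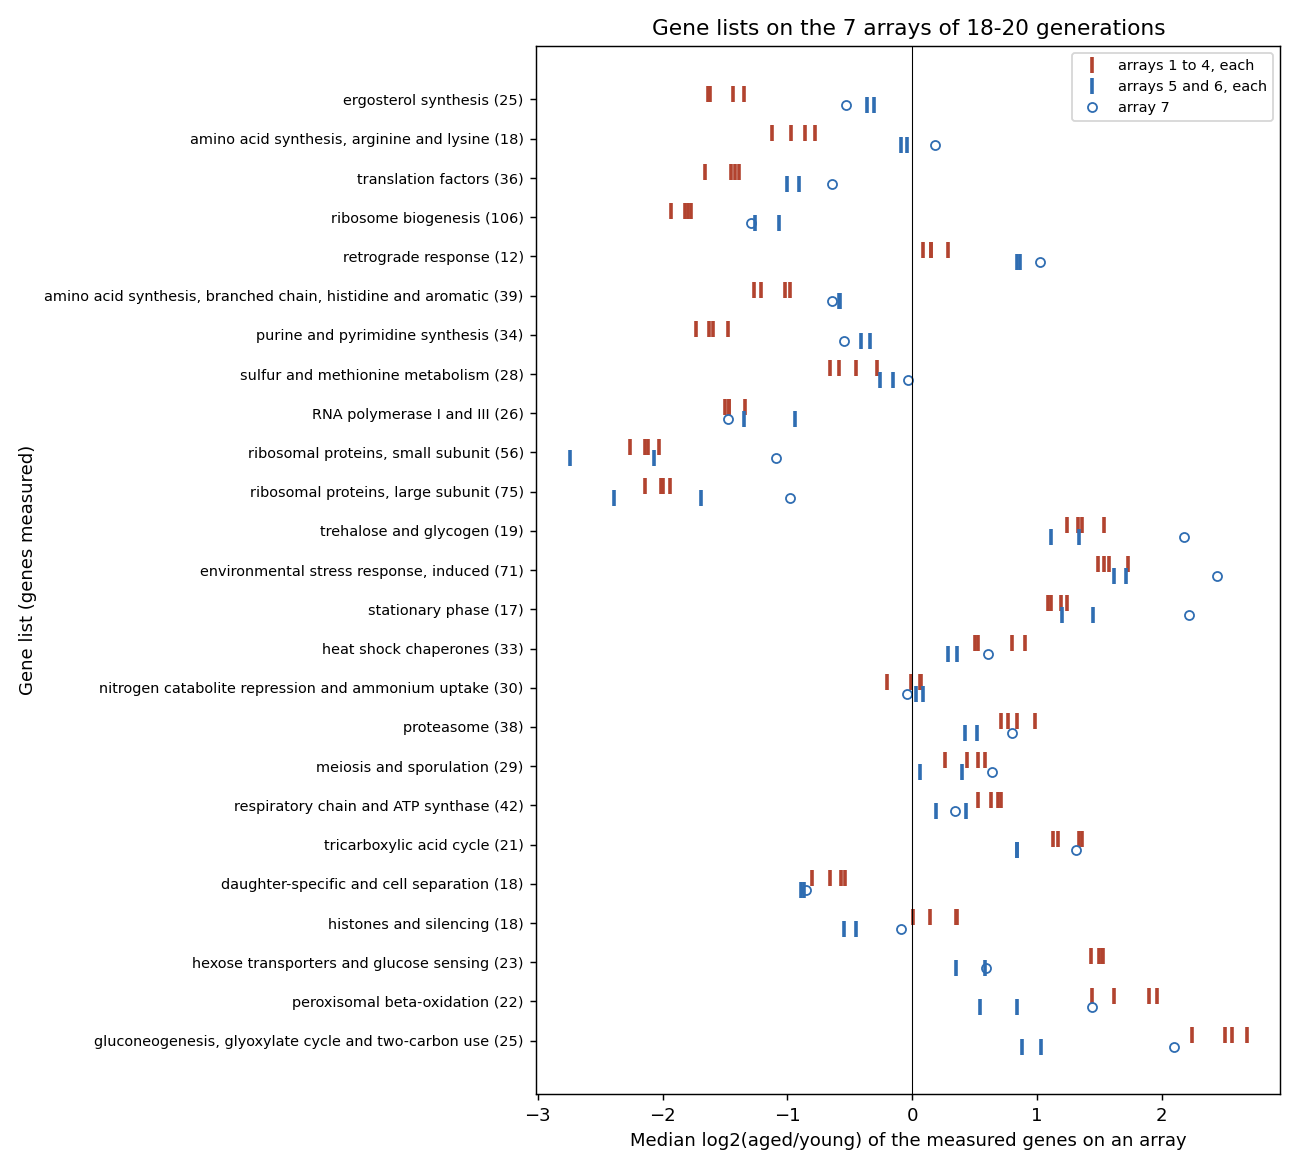
Median log2(aged/young) of 25 gene lists on each 18-20-generation array (horizontal), arrays 1 to 4 as red ticks, arrays 5 and 6 as blue ticks and array 7 as open circles, with lists ordered by their median difference. Ergosterol synthesis (medians of -1.52 in arrays 1 to 4 and -0.44 in arrays 5 to 7) is at the top and gluconeogenesis (2.54 in arrays 1 to 4 and 1.64 in arrays 5 to 7) at the bottom, and array 7 lies apart for ribosomal proteins and stress genes.

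Ergosterol synthesis, which makes the sterol of yeast membranes, had the largest negative median difference of the 48 lists, -1.22, with 12 of 19 compared genes lower on arrays 1 to 4 and 2 higher. Of its 25 measured genes 21 fell at 18-20 generations and 16 at 12 generations. ERG1, the squalene epoxidase, read -2.69, -1.64, -2.29 and -1.95 on arrays 1 to 4, against -0.52, -0.57 and -0.10 on arrays 5, 6 and 7. ERG6 averaged -2.01 on arrays 1 to 4 and 0.17 on arrays 5 to 7, IDI1 -1.52 on arrays 1 to 4 and 0.37 on arrays 5 to 7, and CYB5, the cytochrome that supplies electrons to sterol enzymes, -3.00 on arrays 1 to 4 and -0.73 on arrays 5 to 7. ERG24 overlapped, at -1.94 on arrays 1 to 4 and -1.77 on arrays 5 to 7. ARE2, which stores sterols as esters, had opposite signs, at -1.42, -1.22, -0.90 and -0.87 on arrays 1 to 4, against 1.45, 1.35 and 1.52 on arrays 5, 6 and 7. In sulfur metabolism 9 of 26 genes were lower on arrays 1 to 4 and 2 higher, beside 20.4% lower and 20.6% higher among all genes compared. CYS4, the cystathionine beta-synthase, averaged -2.17 on arrays 1 to 4 and -0.69 on arrays 5 to 7. STR3 averaged -1.89 on arrays 1 to 4 and 0.03 on arrays 5 to 7. SAM1 and SAM2, which make the methyl donor S-adenosylmethionine, fell in both sets, by 2.66 and 2.96 over the 7 arrays.

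Stores and chaperones were a mixture. Of 19 genes of trehalose and glycogen 17 rose at 18-20 generations. Lower on arrays 1 to 4 lay 7 and higher 3, beside 20.4% lower and 20.6% higher among all genes compared. GPH1, the glycogen phosphorylase, averaged 1.32 on arrays 1 to 4 and 2.97 on arrays 5 to 7, and NTH1, the neutral trehalase, 1.25 on arrays 1 to 4 and 2.88 on arrays 5 to 7. GLC3, the branching enzyme, averaged 2.11 on arrays 1 to 4 and read 0.94, 1.80 and 3.26 on arrays 5, 6 and 7, and its difference of 0.11 was 0.74 without array 7. Of 33 chaperone genes 21 rose and 6 fell, beside 32.9% risen and 31.2% fallen among all genes tested. HSP30, a plasma membrane stress protein, read 2.35, 2.79, 2.51 and 2.17 on arrays 1 to 4, against -0.52, -0.60 and -0.39 on arrays 5, 6 and 7. HSP26, a small heat shock protein, ran the other way, averaging 1.18 on arrays 1 to 4 and 2.89 on arrays 5 to 7. SSE1 averaged -1.23 on arrays 1 to 4 and 0.06 on arrays 5 to 7, and its relative SSE2 rose in both, at 2.16 on arrays 1 to 4 and 2.25 on arrays 5 to 7, with a difference of -0.09 that was 0.34 without array 7. CPR6 read 0.18 to 0.30 on arrays 1 to 4, against 0.67, 0.82 and 5.85 on arrays 5, 6 and 7, so that its difference of -2.23 was -0.53 without array 7. UBI4, the polyubiquitin gene, averaged 1.34 on arrays 1 to 4 and 3.28 on arrays 5 to 7. The stationary phase genes SNZ1 and SPG3 split in opposite ways, at 0.63 on arrays 1 to 4 and 2.21 on arrays 5 to 7 and at 0.16 on arrays 1 to 4 and -1.32 on arrays 5 to 7.

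In respiration, 23 of 42 genes rose, beside 32.9% of all genes tested. Of the 41 compared, 12 lay higher on arrays 1 to 4 and 5 lower, beside 20.6% higher and 20.4% lower among all genes compared. ATP18, a small subunit of the ATP synthase, read 0.98, 0.97, 0.86 and 0.74 on arrays 1 to 4, against -0.92, -1.51 and -1.27 on arrays 5, 6 and 7, and ATP2, a catalytic subunit, averaged 0.13 on arrays 1 to 4 and -1.92 on arrays 5 to 7. QCR10, of complex III, averaged 1.22 on arrays 1 to 4 and 3.26 on arrays 5 to 7. STF1, which stabilises the inhibited ATP synthase, rose in both at 2.67 on arrays 1 to 4 and 2.44 on arrays 5 to 7. SMX3, of the Sm ring of splicing particles, SUR7, of the plasma membrane domains called eisosomes, and BOI1, of bud growth, also had opposite signs in the sets, at 0.96 on arrays 1 to 4 and -0.93 on arrays 5 to 7, 0.87 on arrays 1 to 4 and -1.08 on arrays 5 to 7, and 0.96 on arrays 1 to 4 and -0.89 on arrays 5 to 7. YGR067C, YML089C, YBR099C, FSF1 and ALT2 complete the 12 largest positive differences, between 2.47 and 2.71. FSF1 was below 0 on every array, averaging -0.82 on arrays 1 to 4 and -3.41 on arrays 5 to 7. Among 225 compared genes whose names had no match in the RefSeq table, 28.9% lay above and 12.0% below, and their median difference was 0.24. By chromosome of the RefSeq table the median difference of the nuclear genes was between -0.06 and 0.09.

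Markers of other cell states were measured on the same arrays. Counts of risen and fallen markers stand beside 32.9% risen and 31.2% fallen among all genes tested. Of 7 markers of a cells, 4 rose and none fell at 18-20 generations, with list medians per array of 0.19 to 0.68 on arrays 1 to 4 and 0.15 to 0.29 on arrays 5 to 7. None of the 7 had spots well above background on all 7 arrays. STE6 was not well above background on any of arrays 5 to 7, and AGA2 was measured on 1 of arrays 1 to 4. All 5 markers of alpha cells fell, with medians of -2.08 to -1.42 on arrays 1 to 4 and -1.56 to -1.20 on arrays 5 to 7, and 4 of the 5 had spots well above background on all 7 arrays. STE3, the receptor of alpha cells, averaged -1.96 on arrays 1 to 4 and -1.54 on arrays 5 to 7. Signal of alpha markers was thus measured in material described as "a mating type", and whether alpha cells were present was not tested. Of 9 markers of newborn daughters 7 fell and 2 rose, with medians of -1.17 to -0.85 on arrays 1 to 4 and -1.61 to -0.96 on arrays 5 to 7. DSE2, made in daughters for separation from the mother, fell by 2.29, with set means of -2.44 on arrays 1 to 4 and -2.10 on arrays 5 to 7, and CTS1, the chitinase of separation, read 1.38 on array 7 and between -1.27 and -0.80 on the rest. Of 8 meiotic markers 5 rose and none fell, with medians of 1.27 to 1.44 on arrays 1 to 4 and 0.14 to 1.20 on arrays 5 to 7. Of these 8, 2 had spots well above background on all 7 arrays. In the wider list of 29 measured meiosis and sporulation genes 12 rose and 1 fell. Its medians were 0.26 to 0.58 on arrays 1 to 4 and 0.06 to 0.64 on arrays 5 to 7. Of its 22 compared genes 6 lay above on arrays 1 to 4 and 2 below, among the latter DIT1 (1.84 against 2.57). IME1, the initiator of meiosis, read 4.15, 3.88, 3.69 and 3.25 on arrays 1 to 4, against 0.43, 1.16 and 1.76 on arrays 5, 6 and 7. DMC1, the meiotic recombinase, averaged 2.28 on arrays 1 to 4 and 0.91 on arrays 5 to 7. All 7 stationary-phase markers rose, with medians of 1.61 to 2.06 on arrays 1 to 4 and 1.95 to 2.79 on arrays 5 to 7. In the wider stationary phase list 15 of 17 genes rose and 2, SPG3 and SNO1, were not called. The medians of that list were lower, at 1.09 to 1.24 on arrays 1 to 4 and 1.20 to 2.22 on arrays 5 to 7. The part of such cells in the set differences was not tested.

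Of 15 compared genes of histones and silencing 8 lay above on arrays 1 to 4 and 1 below. HHT1, a gene of histone H3, read 1.25, 0.76, 0.73 and 1.24 on arrays 1 to 4, against -0.89, -1.36 and 0.04 on arrays 5, 6 and 7, and HTZ1, of the variant H2A.Z, averaged 0.26 on arrays 1 to 4 and -1.16 on arrays 5 to 7. HST1, a relative of the deacetylase SIR2, averaged 0.70 on arrays 1 to 4 and -0.10 on arrays 5 to 7. Among the 48 lists, which leave out the one-carbon group put together later (median difference -0.91), 7 had a median difference of -0.5 or less, 3 of 0.5 or more, and 38 lay between.

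Each ratio has an aged and a young side, and the levels of both channels differed between the sets. For the 347 genes over 2-fold above, the median difference of the aged-channel level, arrays 1 to 4 minus arrays 5 to 7, was 0.97 and that of the young-channel level -0.34, beside -0.14 and -0.11 over all genes compared. For the 400 genes below, the medians were -0.71 in the aged channel and 0.71 in the young channel. Channel levels carry each slide's own spot brightness, and over genes these differences had SDs of 0.936 in the aged and 0.902 in the young channel. Named genes were of both kinds. The young-channel level of ADE17 was higher on arrays 1 to 4 by 4.20, with -0.06 in the aged channel, and for ARG4 the values were 3.21 and -0.27 and for CHA1 2.88 and -0.29. ATO3, LYS9 and CAR2 differed on the aged side, by 3.89, 3.02 and 3.26, with -0.59, -0.26 and 0.19 on the young side. The side did not always go with the direction. HXT1, higher on arrays 1 to 4, differed by -2.40 on the young side and 0.16 on the aged side. HIS4, lower on arrays 1 to 4, differed by -2.18 on the aged side and 0.52 on the young side. GCV1 differed on both sides, by -1.68 in the aged and 2.13 in the young channel. Whether the sets shared young or aged RNA is not given in the labels. Brighter genes differed more often, with 8.54% of the 1300 dimmest and 21.4% of the 1300 brightest genes among the 747.

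Whether the split appears earlier was looked at in the 7 arrays of 12 generations, which the choice of sets did not use, though the labels leave unsaid whether young RNA was shared across ages. The genes shared by the sets at 18-20 generations had mostly changed by then. Of the 407 called rises over 2-fold in both sets, 366 rose at 12 generations (89.9%) and none fell, and of the 517 falls 453 fell (87.6%) and none rose. Genes of the split were closer to the background of 24.5% risen and 23.5% fallen among all genes compared. Of the 347 genes higher on arrays 1 to 4, 122 rose at 12 generations (35.2%) and 46 fell (13.3%), and of the 400 lower ones 59 rose (14.8%) and 104 fell (26.0%). These shares are not a fair contrast. The fit takes a gene's spread over all ages together, so a gene split at 18-20 generations is harder to call at 12. The shared genes had to be called in that same fit. Without any call, the median change at 12 generations was 0.96 for the shared rises and -0.90 for the shared falls. It was 0.24 for the higher genes and -0.21 for the lower ones. These medians are not a fair contrast either, because the classes were chosen by size at 18-20 generations. There the medians in arrays 1 to 4 and arrays 5 to 7 were 1.60 and 1.55 for shared rises. For shared falls they were -1.84 and -1.62, for the higher genes 0.95 and -0.37, and for the lower ones -0.99 and 0.67.

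The 12-generation arrays were not alike in this. Array 1 of that age correlated at 0.849 to 0.878 with the 18-20-generation arrays 1 to 4, at 0.630 to 0.695 with arrays 5 to 7, and at 0.310 to 0.750 with the others of its own age. Over genes, the difference between the sets correlated with that array at r = 0.347, with 12-generation arrays 6 and 7 at 0.234 and 0.247, and with arrays 2 to 5 of that age at -0.0723 to 0.110. ADE17 read -1.89 on 12-generation array 1, GCV1 -1.07, ATO3 3.92, LYS9 2.27, CAR2 2.80 and IME1 4.63, each on the side of 18-20-generation arrays 1 to 4. That array was not alone in this for every gene. On 12-generation arrays 4 to 7 ATO3 read 1.39, 1.68, 2.40 and 2.50, CAR2 1.63, 1.26, 2.34 and 2.07, and IME1 2.83, 3.09, -0.17 and 2.74. There ADE17 read 0.59, 0.24, 0.34 and 0.06, GCV1 0.52, 1.35, -0.11 and 0.46, and LYS9 0.15, 0.33, 0.09 and 0.20. LYS9 read -0.78 and -1.18 on 12-generation arrays 2 and 3.

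**Figure D5:**
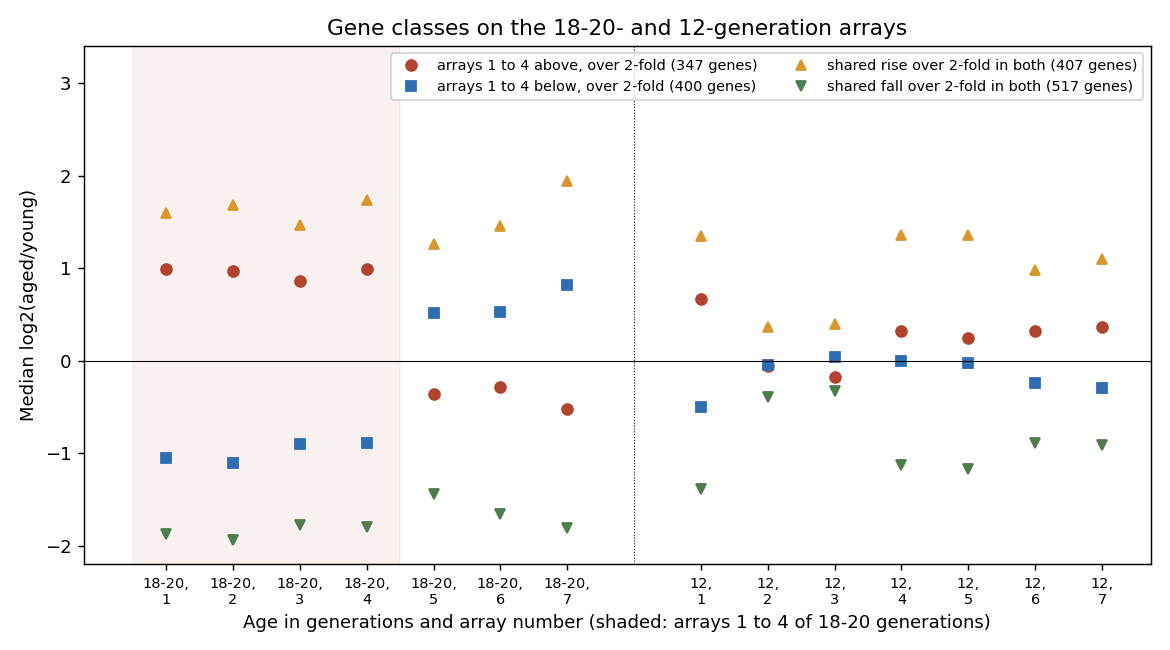
Median log2(aged/young) (vertical) of 4 classes of genes on each 18-20-generation and 12-generation array (horizontal): genes over 2-fold higher (red circles) or lower (blue squares) on arrays 1 to 4, and genes over 2-fold up (orange) or down (green) in both sets. On 12-generation array 1 the higher class had a median of 0.67 and the lower class -0.50, while on 12-generation arrays 2 and 3 all 4 classes lay between -0.39 and 0.40.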

How the data were processed

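The 27 two-colour spotted arrays were deposited as scanner output with an intensity for each channel of each spot and the percent of a spot's pixels above background, per the file headers. RNA was amplified and dye-coupled, per the labels' protocols. The deposited value table of the authors holds log2 ratios, with scale and centring not given in the sources used here. It served only as an alternative. Its 18-20-generation columns correlated with their own arrays at 0.935 to 0.996 (column medians -0.0118 to 0.0984). The columns of 8-generation arrays 1 and 3 correlated with theirs at -0.581 and -0.571, and those of 1-generation arrays 3 and 4 at 0.373 and 0.421. None of these columns matched its own array best, and the reason was not tested. Scanner files of these arrays are part of the fit over all arrays, which gives the dye term and each gene's spread.

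Median intensities were background-corrected (normexp, offset 50) and loess-normalised (span 0.3) in limma 3.58.1 under R 4.3.3. Marked spots were left out, ratios were turned to aged over young by the dye labels, and spots of 1 systematic name were averaged. Genes measured on at least 3 arrays of every age were tested in 1 fit holding 1 mean per age plus a term for dye, at a Benjamini-Hochberg adjusted p of 0.05. For the channel levels, mean spot brightness over both channels was also quantile-normalised across arrays, and no dye term was taken off. Set means and counts were made in Python 3.11.15 with pandas 2.3.3 and numpy 2.4.6. On simulated data for 18-20 generations over 5865 genes, 61 of 67 genes changed by 1 on the log2 scale were called, and 29 of 67 changed by 0.5. The simulated arrays scattered independently, with no sets and no shared RNA, so these counts may not hold for the measured arrays.

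The sets, lists and tests were chosen with earlier results of these data known. Named genes were the 10 largest shared rises and falls, the 12 largest differences each way, the 6 clearest opposite genes each way, and up to 4 differing and 2 shared genes of each list described; 1 gene that the rule takes is not reported here. The one-carbon list, and the comparisons with arrays 5 and 6 alone or array 7 alone, were chosen after seeing the data. The main fit did not pair arrays of different ages by the number in their titles. As a block these numbers had a correlation of -0.0416, which cannot tell whether equally numbered arrays shared RNA. The number of arrays limits the precision. Gene names were matched to the RefSeq table for 5849 genes.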

Additional observations from a re-analysis of the deposited data

Results flagged for a closer look

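Among 242 sets of values over the 18-20-generation arrays (193 named genes and the list medians), 26 held 1 array far from the rest by Dixon's criterion, and chance flags about 1 in 20 such sets. Array 7 was the distant one in 25 of the 26. It was higher than the rest for HSP12 (3.88), HXK1 (4.16), DAD3 (3.88), BIO4 (3.69), MTH1 (3.12), SSE2 (3.12), IDH1 (1.88) and ACO1 (3.98). It was also higher for CPR6 (5.85, the rest at most 0.82), MET28 (2.53, the rest at most 0.42), CTS1 (1.38) and HTA2 (0.10). Ribosomal protein genes lay on both sides, with RPL20B at -0.02, RPL12A at -0.14 and RPS28B at 0.08 above the other arrays, and RPL2A at -5.12 and RPS16A at -4.31 below them. ERG2 (-4.81), DSE4 (-2.95) and SER2 (-3.37) were also lower on array 7. Of the list medians, array 7 stood above the rest for the small ribosomal subunit (-1.09), induced stress genes (2.44), trehalose and glycogen (2.18), DNA damage and repair (0.60) and stationary phase (2.22). Array 5 stood above the rest for RNA polymerase I and III (-0.94). Array 7 was the brightest, with 6.29% of spots partly saturated, and the part of saturation in these values was not tested.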

How the results depend on the processing

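The count of genes changed at 18-20 generations, 3764, was 3178 to 3924 under the alternatives run except with arrays scaled to equal spread, where it was 2401, and 3573 to 3747 with 1 array left out. At 12 generations 2627 genes changed, with 2028 to 2780 under the alternatives and 2327 to 2622 with 1 array left out. With the array number as a replicate block the counts were 3766 and 2625. Whether equally numbered arrays share more than the number is not given in the labels. The 747 genes over 2-fold apart between the sets became 596 to 830, but 123 with arrays scaled, which shrinks the ratios, and 1323 with array 7 alone against arrays 1 to 4; with 1 array left out they were 720 to 852. The correlation of the set means, 0.735, was 0.651 with array 7 alone, and 0.723 to 0.745 with 1 array left out. In the authors' deposited table the difference turned to -0.06 for RPS16A and -0.34 for RPS4B. With arrays 1 to 4 averaged into 1, the change at 18-20 generations turned to -0.11 for LYS9, 0.08 for GCV2 and 0.81 for ARE2. Over named genes and alternatives together, 3257 values at 18-20 generations kept their call, 79 gained one and 120 lost it; the cause was not tested. Low brightness on arrays 5 and 6 limits dim genes there, and saturation on array 7 limits bright ones.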
